A study of Mus musculus with 8 samples.

Results

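Chdh, Ak4, Gpat3 and Plcd1 are 4 metabolic enzyme genes that were chosen because their values were lower in Tfap2c-/- than in control primordial germ cell-like cells (PGCLCs). All probe sets that name only 1 of these genes in the annotation of the array were taken, which gave 9 of the 45101 probe sets and 4 of the 18193 genes measured. Chdh and Gpat3 have 1 probe set each, Plcd1 has 2 and Ak4 has 5. The study ran 8 expression arrays, with 2 for each of 4 groups, Tfap2c-/- PGCLCs, control PGCLCs, Tfap2c-/- embryonic stem cells (ESCs) and control ESCs. The control ESCs carry Tfap2c alleles flanked by loxP sites and the Tfap2c-/- ESCs were derived from them by a transient Cre transfection, and all 4 groups carry the Blimp1mVenus reporter. PGCLCs were made from these ESCs by way of epiblast-like cells with BMP4, BMP8b, SCF, LIF and EGF, and were sorted for the reporter before RNA was extracted. The study used 2 control ESC lines and 2 knockout lines, each knockout line derived from its own control line, and ran arrays on ESCs and PGCLCs of all of them. The labels give each array a cell type, a genotype and a replicate number, but do not tie the numbers to the lines, so the p-values below measure only the spread between these arrays.

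Chdh encodes choline dehydrogenase, which oxidizes choline to betaine aldehyde in mitochondria on the way to betaine, a methyl donor. Ak4 encodes a mitochondrial adenylate kinase, Gpat3 a glycerol-3-phosphate acyltransferase of the endoplasmic reticulum that starts the synthesis of glycerolipids, and Plcd1 phospholipase C delta 1, which cleaves phosphatidylinositol bisphosphate into the second messengers inositol trisphosphate and diacylglycerol. Tfap2c is a transcription factor of the AP-2 family, needed for primordial germ cells, whose dimers bind palindromes of the form GCCNNNGGC or GCCNNNNGGC.

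The 4 genes lie on 4 chromosomes (GRCm38.p6), Chdh at chr14:30008901-30040468, Ak4 at chr4:101416478-101467771, Gpat3 at chr5:100845665-100899102 and Plcd1 at chr9:119071527-119093502. The sequences before their annotated starts are shown because Tfap2c, the gene deleted here, encodes a DNA-binding factor. RefSeq promoters hold 10 windows of 250 bases upstream of a start for these genes, 3 for Chdh, 4 for Ak4, 1 for Gpat3 and 2 for Plcd1. Both AP-2 palindromes were searched. Each is its own reverse complement, so that a match on 1 strand is also a match on the other, and the palindromes may overlap each other. Of the 10 windows, 4 held a match, against 23.0% of all 32851 windows of the same length. The 10 are not separate pieces of DNA, since 3 of the Ak4 windows overlap over most of their length, and most are richer in G and C than other windows, as the palindromes are (51.6 to 74.8%, against a median of 52.4% over all windows), so that nothing is read from this share. The shorter palindrome was in 13.7% and the longer in 12.3% of all windows. The window before the most upstream Plcd1 start (chr9:119093503-119093752, minus strand) held 1 match, in capitals, whose first base lies at -59 from the start. The corresponding windows of Ak4 (chr4:101419039-101419288, plus strand) and Gpat3 (chr5:100845979-100846228, plus strand) held none. The starts used are those of the RefSeq promoter windows. For Ak4 and Gpat3 the gene spans given above begin further upstream, so that both windows lie inside the annotated gene. All sequences are from RefSeq and run 5′ to 3′ on the strand of the gene.
Plcd1: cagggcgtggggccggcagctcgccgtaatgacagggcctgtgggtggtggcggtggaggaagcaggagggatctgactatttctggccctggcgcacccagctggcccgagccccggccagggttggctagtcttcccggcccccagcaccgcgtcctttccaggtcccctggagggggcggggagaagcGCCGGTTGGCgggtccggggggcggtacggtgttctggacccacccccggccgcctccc
Ak4: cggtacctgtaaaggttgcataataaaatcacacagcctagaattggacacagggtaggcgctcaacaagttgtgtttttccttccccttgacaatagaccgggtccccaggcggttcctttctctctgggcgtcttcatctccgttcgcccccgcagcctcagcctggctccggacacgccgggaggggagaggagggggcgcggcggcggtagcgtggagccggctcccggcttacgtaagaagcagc
Gpat3: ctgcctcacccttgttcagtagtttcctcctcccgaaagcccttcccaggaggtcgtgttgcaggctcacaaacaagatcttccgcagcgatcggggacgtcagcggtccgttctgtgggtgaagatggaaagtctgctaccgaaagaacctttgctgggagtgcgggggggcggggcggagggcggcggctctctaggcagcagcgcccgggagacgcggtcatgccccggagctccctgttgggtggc

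Chdh lies head to head with Il17rb, a cytokine receptor gene on the opposite strand. Their annotated gene spans lie 5 bases apart. The most upstream Chdh promoter window ends before a start at position 30009000, which lies inside the Chdh span, and the Il17rb window before a start at position 30008896. The 103 bases between these 2 starts (chr14:30008897-30008999, plus strand) are shown first below. No AP-2 palindrome was in these bases. The match nearest to this start of Chdh begins at -202, on the far side of the Il17rb start, and is in capitals in the 30 bases shown second (chr14:30008788-30008817, plus strand). A start further inside Chdh had the matches GCCACATGGC at -137 and GCCTCAGGC at -93, and 1 of the Ak4 starts had GCCGAGGGGC at -19. A match is a run of letters and not evidence of binding.
Chdh and Il17rb: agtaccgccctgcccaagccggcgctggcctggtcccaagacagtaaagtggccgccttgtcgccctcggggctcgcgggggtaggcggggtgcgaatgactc
Chdh: acatggcccgGCCACTGGCcaccgcccacc

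The values are levels on the log2 scale, and a value near 2 or 3 is background on these arrays. As a cutoff, the 95th percentile of 83 probe sets of chemosensory receptor genes, which neither cell type is known for, was taken on each array. It lay between 3.34 and 3.61. A gene was called above background in a group when its most intense probe set lay above the cutoff on both arrays. By this rule 4 of the 4 genes were above background in control PGCLCs, 1 in Tfap2c-/- PGCLCs (Plcd1), 2 in Tfap2c-/- ESCs and 2 in control ESCs (Ak4 and Plcd1 in both). Of all genes, 60.8% were above background in Tfap2c-/- PGCLCs, 60.4% in control PGCLCs, 59.7% in Tfap2c-/- ESCs and 60.4% in control ESCs. A ratio against a group below the cutoff is given as a bound, with each array of that group set to its cutoff where its value was lower.

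Tfap2c itself was 8.52 and 8.85 in Tfap2c-/- PGCLCs, against 9.84 and 10.29 in control PGCLCs. In ESCs it was 7.28 and 6.47 with Tfap2c-/-, against 7.88 and 9.14 in controls. Its values were lower in the knockout arrays of both cell types but far above background everywhere, and neither difference passed limma (-1.38 in PGCLCs, SE 0.42, adjusted p = 0.15; -1.63 in ESCs, SE 0.42, adjusted p = 1). Whether its probe sets lie in the deleted part of the gene is not given in the sources used here, so that these values do not check the labels. The paper genotyped the ESC lines by PCR and stained them for TFAP2C protein. It also ran RT-PCR on PGCLC RNA, with Tfap2c among its listed primers. The legend reports no signal in Tfap2c-/- PGCLCs, without naming the gene there. Technical controls differed between the arrays. The mean of the 24 poly-A spike probe sets was 7.91 in control PGCLC replicate 2 and 6.72 to 7.44 in Tfap2c-/- PGCLCs. It was 5.84 in control PGCLC replicate 1 and 5.42 to 5.91 in ESCs. The Gapdh 3′ probe set exceeded the 5′ one by 0.95 in control PGCLC replicate 2, against 0.31 to 0.52 elsewhere. The part of these controls in the results was not tested, and the enzymes' differences are also given without control PGCLC replicate 2. In sorted bulk cells, fewer cells that express a gene and less RNA per cell cannot be told apart.

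Chdh was detected in control PGCLCs alone. It was at 2.54 and 2.43 in Tfap2c-/- PGCLCs, against 6.84 and 7.75 in control PGCLCs. In ESCs it was at 2.57 and 2.60 with Tfap2c-/- and at 2.86 and 2.99 in controls. The 2 control PGCLC arrays were the only ones above the cutoff, and the other 6 lay between 2.43 and 2.99. The ratio was at least 14.4-fold in favour of control PGCLCs. The measured means differed by -4.81 on the log2 scale, and by -4.35 without control PGCLC replicate 2, but the knockout side of this difference lay under the cutoff, where values have no order. Since the genes were chosen on this difference, it is given without a test here and for the other 3 genes.

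Gpat3 had the same kind of pattern. It was at 2.12 and 2.38 in Tfap2c-/- PGCLCs, against 6.28 and 6.67 in control PGCLCs. In ESCs it was at 2.46 and 2.70 with Tfap2c-/- and at 2.21 and 2.98 in controls, where the arrays overlapped. No array other than the control PGCLC arrays reached the cutoff. The ratio was at least 8.19-fold in favour of control PGCLCs. The measured means differed by -4.23, and by -4.03 without control PGCLC replicate 2, again with the knockout side under the cutoff.

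Among all genes, 38 (0.209%) were above background on both control PGCLC arrays and on no array of the other 3 groups. Chdh and Gpat3 were among these 38. Both were chosen for being low in the knockout, so this is a description.

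Plcd1 was lower in Tfap2c-/- PGCLCs but still detected. Its more intense probe set was at 4.67 and 5.12 in Tfap2c-/- PGCLCs, against 8.33 and 8.78 in control PGCLCs. It was at 5.14 and 4.29 in Tfap2c-/- ESCs and at 3.84 and 4.33 in control ESCs. All 8 arrays were above the cutoff, and the level in Tfap2c-/- PGCLCs lay near that in ESCs. With the 99th percentile of the receptor probe sets as a stricter cutoff, only 1 of the 2 control ESC arrays stayed above it. The difference in PGCLCs was -3.66, and -3.44 without control PGCLC replicate 2. It corresponds to a ratio of 12.6-fold in favour of control PGCLCs.

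Ak4 had control ESC arrays that overlapped the control PGCLC arrays, unlike the other 3 genes. Its most intense probe set was at 4.29 and 3.50 in Tfap2c-/- PGCLCs, against 8.54 and 7.84 in control PGCLCs. It was at 6.31 and 4.98 in Tfap2c-/- ESCs, against 7.45 and 8.22 in control ESCs. Tfap2c-/- PGCLCs were lowest, with 1 of 2 arrays above the cutoff, Tfap2c-/- ESCs were intermediate, and the control arrays of both cell types were highest and overlapped. The difference in PGCLCs was -4.29, and -4.64 without control PGCLC replicate 2, with a ratio of at least 19.3-fold in favour of control PGCLCs. In all 4 genes both Tfap2c-/- PGCLC arrays were below both control PGCLC arrays, as they were in 27.9% of all genes, and the choice of the genes fixes this.

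**Figure D1:**
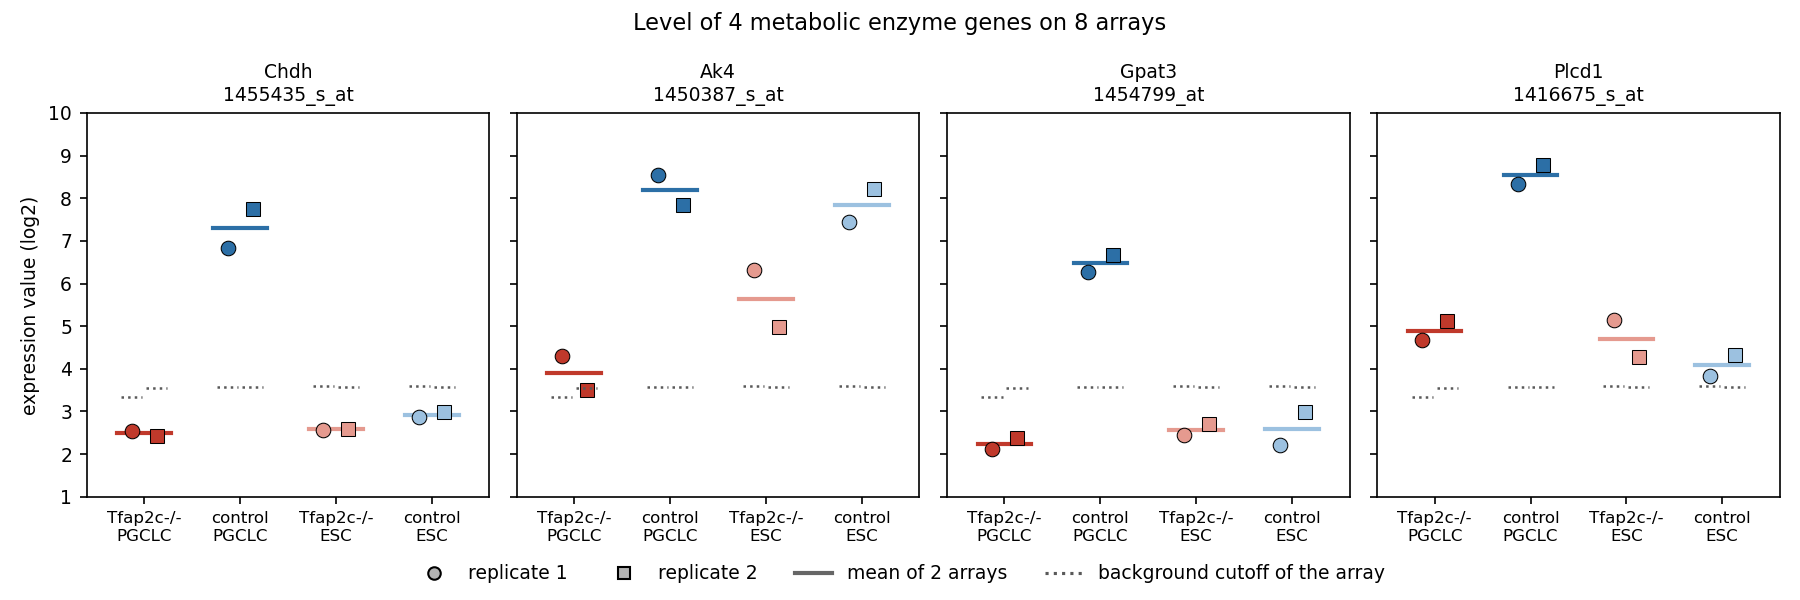
Level of Chdh, Ak4, Gpat3 and Plcd1 (log2 expression value, y axis) on the most intense probe set of each gene in the 4 groups (x axis), with 1 point per array, a bar for the mean of 2 arrays and dotted lines for the background cutoff of each array. The control PGCLC arrays were at 6.28 or higher for each gene, and only Ak4 reached such levels in ESCs.

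The probe sets of a gene were compared next. The 2 Plcd1 probe sets gave the same picture, with r = 0.98 over the 8 arrays. The dimmer Plcd1 probe set, 1448432_at, was at 4.03 and 4.49 in Tfap2c-/- PGCLCs, against 7.10 and 7.76 in control PGCLCs, a difference of -3.17. In ESCs it was at 4.80 and 3.48 with Tfap2c-/- and at 4.09 and 4.24 in controls, so that 1 Tfap2c-/- ESC array lay under the cutoff.

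The 5 Ak4 probe sets did not give the same picture. A pair of them, 1450387_s_at and 1421830_at, varied together (r = 0.993). Probe set 1421830_at was at 2.67 and 2.49 in Tfap2c-/- PGCLCs, against 7.51 and 6.76 in control PGCLCs, and at 5.29 and 4.18 in Tfap2c-/- ESCs, against 6.56 and 7.49 in control ESCs. On this probe set both Tfap2c-/- PGCLC arrays lay under the cutoff, and the ratio was at least 12.9-fold in favour of control PGCLCs. Probe set 1421829_at (r = 0.933 with the first) also had Tfap2c-/- PGCLCs lowest, Tfap2c-/- ESCs next and overlapping control arrays of both cell types highest. Its range was much narrower, with 4.06 and 3.81 in Tfap2c-/- PGCLCs, against 4.65 and 4.58 in control PGCLCs. It lay above the cutoff on all 8 arrays. Hence Ak4 counts as above background in Tfap2c-/- PGCLCs if any of its probe sets may decide. The last 2, 1421831_at and 1438395_at, were under the cutoff on all 8 arrays, and their differences in PGCLCs were -0.23 and -0.34. A mean over all 5 probe sets gives Ak4 a difference of -2.02 in PGCLCs.

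**Figure D2:**
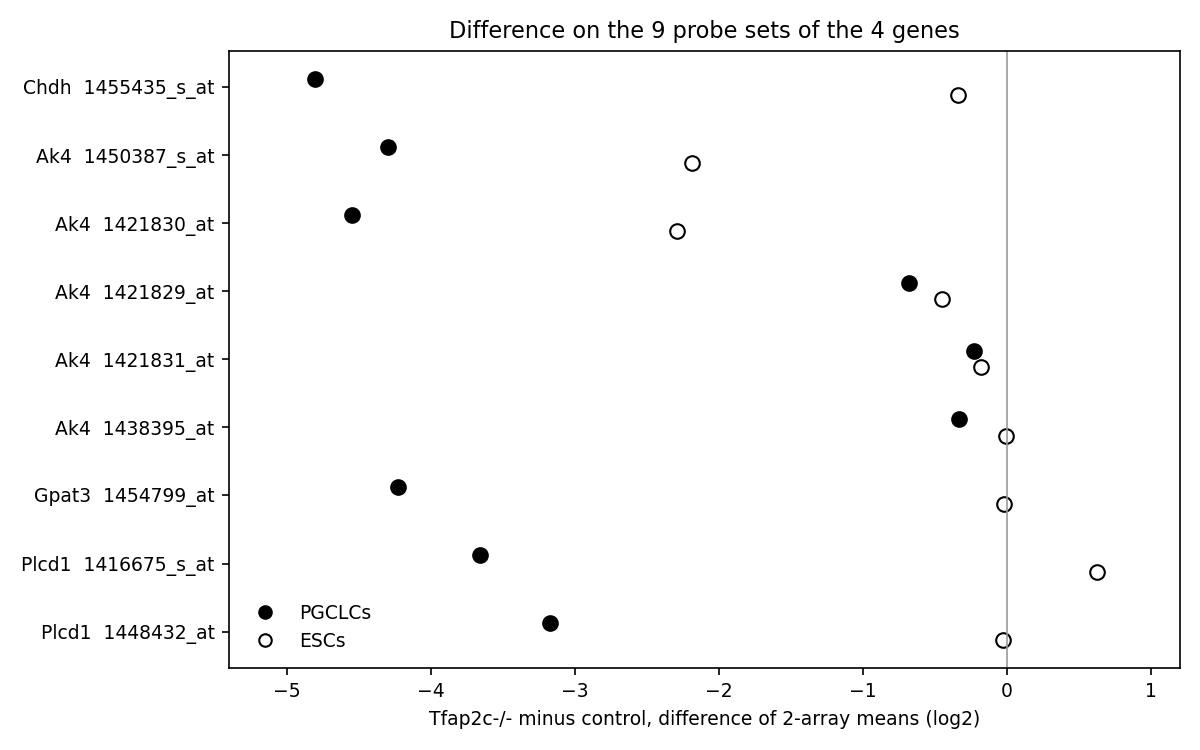
Difference of Tfap2c-/- minus control means (log2, x axis) in PGCLCs (filled) and ESCs (open) on the 9 probe sets (rows) of the 4 genes, each point from 2 against 2 arrays. The PGCLC difference was -3.17 or lower on 6 probe sets, and between -0.68 and -0.23 on the 3 dimmest probe sets of Ak4.

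The same genotype comparison in ESCs was not used to choose the genes. limma, with Benjamini-Hochberg adjustment, called 0 of 18193 genes in ESCs (0%), while 455 genes (2.5%) had an unadjusted p under 0.05, and the adjusted p of each of the 4 enzymes was 1. Ak4 was the one with a sizeable difference, -2.19 (SE 0.50, 95% confidence interval -3.35 to -1.03, unadjusted p = 0.00256 by limma), and both Tfap2c-/- ESC arrays were below both control ESC arrays, as in 11.0% of all genes. Leaving out single arrays gave -2.85 to -1.52. The Ak4 probe set 1421830_at differed by -2.29, the 3 dimmest Ak4 probe sets by -0.45 to -0.01, and the mean of all 5 by -1.02. A mean difference under -1.5 was found in 22 genes (0.121%) in ESCs. Chdh differed by -0.34 (SE 0.28, interval -0.99 to 0.31) at background level in both ESC groups. Gpat3 differed by -0.02 (SE 0.28, interval -0.66 to 0.63), also at background. Plcd1 differed by 0.63 (SE 0.34, interval -0.15 to 1.41), and its second probe set by -0.02. With control ESCs already at background for Chdh and Gpat3 and near it for Plcd1, a difference as low as that in PGCLCs could not have been measured in ESCs for these 3 genes. How far the effects in the 2 cell types differ was not tested for these genes, since the PGCLC values chose them.

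The genes also differ in how the 2 cell types compare within a genotype. These comparisons share the control PGCLC arrays with the values above. Control PGCLCs exceeded control ESCs by 4.37 for Chdh, 3.88 for Gpat3 and 4.47 for Plcd1. The ratios were at least 13.1-fold for Chdh, at least 7.42-fold for Gpat3 and 22.2-fold for Plcd1. In 25.3% of all genes both control PGCLC arrays were above both control ESC arrays. For Ak4 the difference was 0.36 with overlapping arrays. Tfap2c-/- PGCLCs minus Tfap2c-/- ESCs was -0.10 for Chdh, -0.33 for Gpat3 and 0.18 for Plcd1, against -1.75 for Ak4. Thus 3 genes were higher in control PGCLCs than in any other group, while Ak4 was lower in the knockout of each cell type.

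The values over the 8 arrays were also correlated between the genes, as a description of the same levels. Chdh and Gpat3 followed each other closely (r = 0.99), as did Chdh and Plcd1 (r = 0.956) and Gpat3 and Plcd1 (r = 0.96). Ak4 was less like Chdh (r = 0.623), Gpat3 (r = 0.618) and Plcd1 (r = 0.449). The 8 points are 4 groups of 2, so that r mostly describes the group levels, including the PGCLC difference that chose the genes, and for Chdh and Gpat3 6 of the 8 points lie under the cutoff. Among 1217 genes that spanned at least 2 log2 units, the genes most like Chdh were Gata2, a GATA family transcription factor gene (r = 0.997), Ptges2, a prostaglandin E synthase gene (r = 0.995), and Erbb3, a receptor tyrosine kinase gene (r = 0.992). Those most like Gpat3 were Fam221a (r = 0.995), Ptges2 (r = 0.992) and Gata2 (r = 0.991), with Chdh 4th. Gata2 was at 5.62 and 5.47 in Tfap2c-/- PGCLCs, against 7.21 and 7.63 in control PGCLCs. On the ESC arrays it lay between 5.51 and 5.80.

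The genes most like Plcd1 were Cerk, the ceramide kinase gene (r = 0.986), Habp4 (r = 0.979) and Itgb3, an integrin gene used as a marker of primordial germ cells (r = 0.976). Itgb3 was at 2.41 and 2.83 in Tfap2c-/- PGCLCs, against 4.21 and 4.96 in control PGCLCs. On the ESC arrays it lay between 2.10 and 2.60. Those most like Ak4 were AA467197 (r = 0.964), Stag3, which encodes a meiotic cohesin subunit (r = 0.952), and Fermt3, which encodes a regulator of integrins in blood cells (r = 0.941). AA467197 was at 2.88 and 2.72 in Tfap2c-/- PGCLCs, against 6.56 and 5.56 in control PGCLCs. In ESCs it was at 4.85 and 4.58 with Tfap2c-/-, against 5.79 and 6.80 in controls. As for Ak4, Tfap2c-/- PGCLCs were lowest, Tfap2c-/- ESCs were intermediate, and the control arrays of both cell types were highest and overlapped.

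Markers of the cell types were read beside these values. All 7 ESC markers were above background in each group, and 2 of them, Klf4 (2.22) and Tdgf1 (1.36), were higher in Tfap2c-/- than in control PGCLCs by limma. Of 7 measured markers of primordial germ cells, 3 were lower in Tfap2c-/- than in control PGCLCs by limma, namely Dppa3 (-4.28, adjusted p = 0.0413), Kit (-1.91, adjusted p = 0.00513) and Itgb3 (-1.97, adjusted p = 0.0132). The 7 also hold Tfap2c, the deleted gene, and Prdm1 (Blimp1), the gene of the reporter used for sorting. Nanos3, also on the list, was not among the measured genes. The summed log2 level of the 7 was 47.4 to 48.3 in Tfap2c-/- PGCLCs, against 58.3 to 61.0 in control PGCLCs. It was 42.9 to 43.2 in Tfap2c-/- ESCs, against 44.1 to 47.8 in control ESCs. Itgb3 was the only one not above background outside control PGCLCs. The other 4 did not pass limma (adjusted p = 0.0995 to 0.332). Ak4 was higher in control ESCs than in Tfap2c-/- PGCLCs. The marker sums of these groups overlapped only through 1 control ESC array, at 47.8, against 44.1 on the other. A link between Ak4 and this sum was not tested. The 3 called markers were lower in the same PGCLC comparison as the enzymes, and their part in the enzymes' differences was not tested. Of the endoderm, mesoderm, trophoblast, neural and fibroblast markers none passed limma in PGCLCs. The neural marker Neurod1 was at 4.83 and 4.52 in Tfap2c-/- PGCLCs, against 3.08 and 3.13 in control PGCLCs (difference 1.57, limma adjusted p = 0.14). The mesoderm marker Hoxb1 differed by 1.04 and the trophoblast marker Cdx2 by -0.89 (limma adjusted p = 0.154 and 0.278). The paper lists Neurod1 and Hoxb1 among upregulated genes of somatic differentiation. The fibroblast markers summed to 18.5 to 22.8 in Tfap2c-/- PGCLCs and 17.7 to 21.9 in control PGCLCs, against 16.5 to 17.3 over all ESC arrays. Some markers of other cell types were higher in replicate 1 than in replicate 2 of both PGCLC genotypes. Zic1, a neural marker, was at 4.02 and 1.89 in Tfap2c-/- PGCLCs, against 4.27 and 1.91 in control PGCLCs, and Col1a1, a fibroblast marker, was at 5.27 and 4.30 in Tfap2c-/- PGCLCs, against 5.06 and 3.13 in control PGCLCs. Others were not. Pax6, another neural marker, was at 4.49 and 5.56 in Tfap2c-/- PGCLCs, against 4.49 and 4.65 in control PGCLCs. Postn, another fibroblast marker, was under the cutoff and higher in replicate 2 of both PGCLC genotypes. The part of cells of other types in the results was not tested.

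Other genes of each enzyme's pathway were taken from fixed lists. In PGCLCs limma called 562 of 18193 genes (3.09%), with 327 lower (1.8%) and 235 higher (1.29%) in Tfap2c-/-, and the median difference of all genes was -0.04. Of 27 measured genes of choline and one-carbon metabolism, 1 was lower and 1 higher, with a median of 0.06. Aldh7a1, an aldehyde dehydrogenase that can turn betaine aldehyde into betaine, was at 8.26 and 8.06 in Tfap2c-/- PGCLCs, against 8.91 and 9.26 in control PGCLCs (difference -0.93, SE 0.17, limma adjusted p = 0.0318). Chka, the choline kinase that takes choline into phosphatidylcholine synthesis, was at 7.50 and 8.17 in Tfap2c-/- PGCLCs, against 6.43 and 6.39 in control PGCLCs (difference 1.42, SE 0.27, limma adjusted p = 0.0347). Chpt1, a cholinephosphotransferase gene, had the lowest value of the list, -2.17, without passing (limma adjusted p = 0.0683). Slc44a1, a choline transporter gene, was high in all groups and differed by 0.15 in PGCLCs. Bhmt, whose product uses betaine to remethylate homocysteine, was under the cutoff on every PGCLC array.

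Of 29 measured genes of adenine nucleotide metabolism 0 were lower and 1 was higher, with a median of -0.07. The 1 called was Ak7, another adenylate kinase gene, at 5.74 and 6.39 in Tfap2c-/- PGCLCs, against 4.67 and 4.80 in control PGCLCs (difference 1.33, SE 0.24, limma adjusted p = 0.0302). The other mitochondrial adenylate kinase gene, Ak3, differed by 0.99 and the cytosolic Ak1 by -0.76, neither past limma (adjusted p = 0.253 and 0.0935). Every gene of this list lay between -0.76 and 2.00, while Ak4 itself differed by -4.29.

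Of 30 measured genes of glycerolipid synthesis, 2 were lower and 2 higher, with a median of -0.14. Lpin2, a phosphatidate phosphatase gene, was at 6.58 and 6.15 in Tfap2c-/- PGCLCs, against 7.42 and 7.31 in control PGCLCs (limma adjusted p = 0.0325). Acsl3, an acyl-CoA synthetase gene, was also lower (-0.86, SE 0.15, limma adjusted p = 0.0288). Gpd2, the mitochondrial glycerol-3-phosphate dehydrogenase gene (1.27, SE 0.20, limma adjusted p = 0.0212), and Acsl4, another acyl-CoA synthetase gene (1.16, SE 0.22, limma adjusted p = 0.0358), were higher. The other glycerol-3-phosphate acyltransferases were all measured. Gpam differed by 0.41, Gpat4 by -0.08 and Gpat2 by -1.04, and none passed limma. Gpam and Gpat4 were above the cutoff in every group, including Tfap2c-/- PGCLCs where Gpat3 was not. Gpat2 was at 3.55 and 3.98 in Tfap2c-/- PGCLCs, against 4.94 and 4.67 in control PGCLCs.

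Of 44 measured phosphoinositide genes 1 was lower and 3 were higher, with a median of 0.01. Plcg2, a phospholipase C gamma gene, was lower (-1.37, SE 0.26, limma adjusted p = 0.0338). Plcd3, of the same delta class as Plcd1, was higher and ran opposite to it, with 6.45 and 6.77 in Tfap2c-/- PGCLCs, against 5.06 and 4.51 in control PGCLCs (difference 1.82, SE 0.24, limma adjusted p = 0.0102). Plce1, phospholipase C epsilon, averaged 5.98 in Tfap2c-/- PGCLCs, against 3.46 in control PGCLCs, whose arrays were at 4.09 and 2.83 (difference 2.52, SE 0.37, limma adjusted p = 0.0158). Dgkh, a diacylglycerol kinase gene, was at 7.03 and 7.82 in Tfap2c-/- PGCLCs, against 5.04 and 4.51 in control PGCLCs (difference 2.65, SE 0.32, limma adjusted p = 0.00818). Plcd4, the remaining delta class gene measured, was under the cutoff on all arrays. In ESCs 0 genes of the 4 lists passed limma, and 0 passed for the difference between the PGCLC and the ESC effect, for which 27 genes (0.148%) passed in all. By size alone, 0.89% of all genes had a PGCLC difference below -1.5 and 1.06% one above 1.5, among them 1 list gene below (Chpt1) and 4 above (Ampd3, Plcd3, Plce1 and Dgkh). The PGCLC calls leaned on single arrays. Of the genes called here and of the neighbours below, Plce1 was the only one to pass without control PGCLC replicate 2, and Dnajc6 the only one without Tfap2c-/- PGCLC replicate 2.

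**Figure D3:**
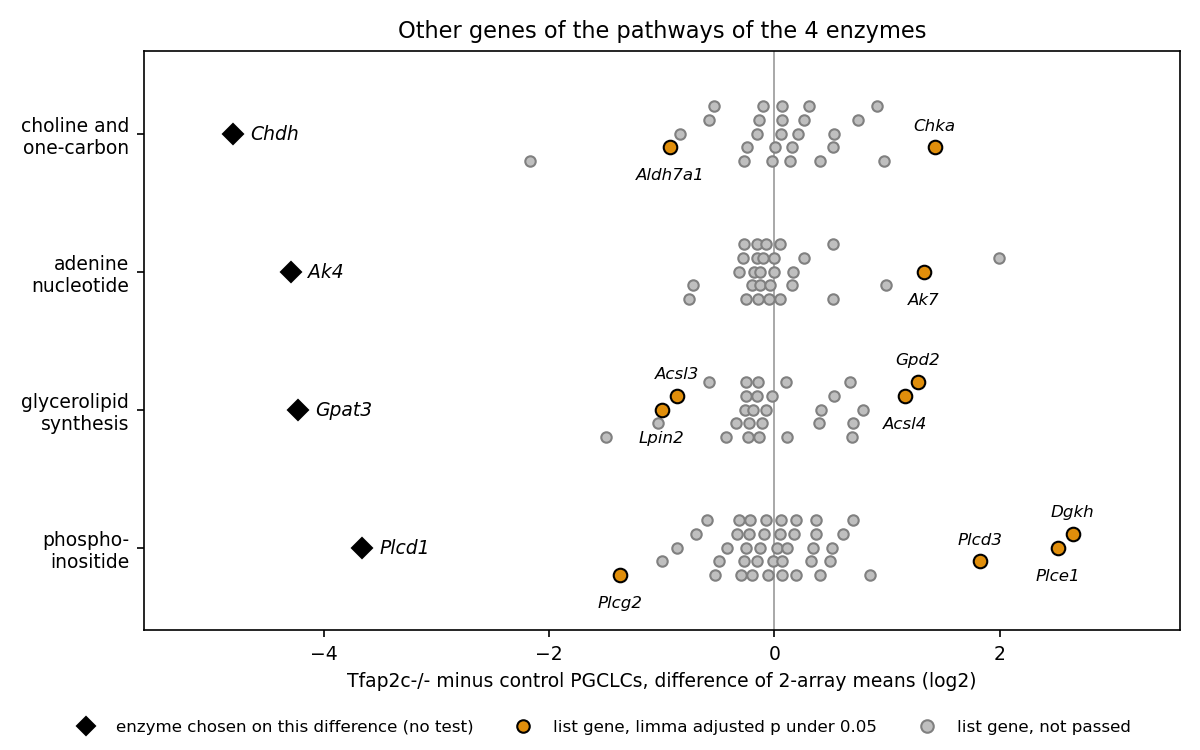
Tfap2c-/- minus control difference in PGCLCs (log2, x axis) of the measured genes of 4 pathway lists (rows; 1 circle per gene, orange where limma's adjusted p was under 0.05, vertical offsets only to separate circles) with the enzyme of each pathway as a diamond. The enzymes, chosen on this difference, lay between -4.81 and -3.66, and the list genes between -2.17 and 2.65.

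The nearest 2 measured protein-coding genes on each side of each enzyme gene were compared in the same way. Of these 16 genes 2 were lower by limma and 0 higher, with a median of -0.28. Il17rb, which shares the 103 bases between starts with Chdh, was at 2.42 and 2.68 in Tfap2c-/- PGCLCs, against 3.70 and 3.52 in control PGCLCs (difference -1.06, SE 0.17, limma adjusted p = 0.0192). It was between 2.73 and 2.98 in ESCs, and only 1 array, control PGCLC replicate 1, was above the cutoff. Its level thus barely left background, and it did not pass without either replicate of Tfap2c-/- or of control PGCLCs.

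Dnajc6, a gene for a clathrin uncoating cofactor that starts 28877 bases beyond Ak4, was at 4.43 and 5.06 in Tfap2c-/- PGCLCs, against 6.54 and 6.26 in control PGCLCs (difference -1.66, SE 0.24, limma adjusted p = 0.0144). In ESCs it was at 6.77 and 6.79 with Tfap2c-/-, against 7.74 and 7.99 in controls (difference -1.08, limma adjusted p = 1). Like Ak4 it was lower in the knockout arrays of both cell types. Its call was lost without Tfap2c-/- PGCLC replicate 1 and without either control PGCLC array. The other genes close by did not pass. Vill, whose annotated end lies 2 bases from Plcd1, differed by 0.09, Abraxas1, which overlaps Gpat3, by -0.38, and Cacna1d, which overlaps Chdh and was near background, by -0.44.

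**Figure D4:**
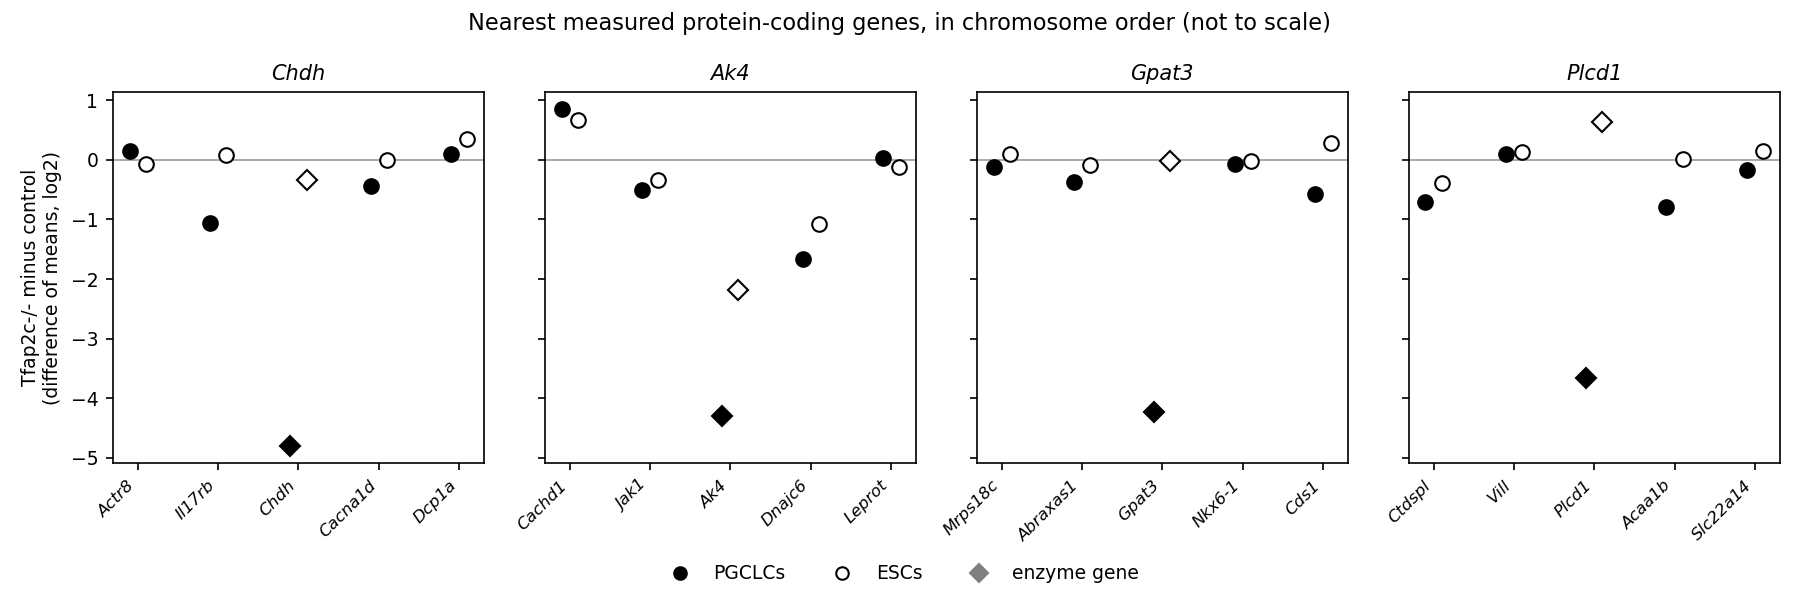
Tfap2c-/- minus control difference (log2, y axis) in PGCLCs (filled) and ESCs (open) for each enzyme gene (diamonds) and the nearest 2 measured protein-coding genes on each side (circles), in chromosome order with distances not to scale. Il17rb (-1.06) beside Chdh and Dnajc6 (-1.66) beside Ak4 were the neighbours called in PGCLCs.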

How the data were processed

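RNA of ESCs and sorted PGCLCs was hybridized to Affymetrix mouse expression arrays. The deposited values are log2 expression levels, 1 per probe set, which the authors had background-corrected, quantile-normalized and summarized. RMA is named in the paper and GCRMA in the submitters' notes on processing, and the probe intensities were not used here. Of 45101 probe sets, 64 are controls, 34945 name 1 gene, 932 name several genes, which were not used, and 9160 are not listed in the annotation. Where several probe sets name a gene, the most intense on average over all 8 arrays stood for it. Means of the 4 groups were fitted with limma 3.58.1 in R 4.3.3 (4 residual degrees of freedom, eBayes with a trend, 3.67 prior degrees of freedom), 2-sided, with Benjamini-Hochberg adjustment over 18193 genes and a threshold of 0.05.

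The genes, lists and tests were chosen with earlier results of these data known. The text names the 4 enzymes, Tfap2c, from each list up to 4 genes past limma in PGCLCs with the largest difference (or the 2 largest where none passed), for each enzyme the 3 genes with the highest Pearson r over 8 arrays, and the nearest 2 measured protein-coding genes on each side. Relatives of an enzyme, Chpt1, Ampd3, Slc44a1, Bhmt and the markers were named after their values were seen. Gene positions and 250 bases upstream of each start are from RefSeq (GRCm38.p6). The number of arrays limits the precision. Alternatives were other probe sets, scalings, filters, cutoffs, a replicate block and leaving out each array. Tables were handled with Python 3.11.15, pandas 2.3.3 and NumPy 2.4.6 and plots drawn with Matplotlib 3.10.9.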

Additional observations from a re-analysis of the deposited data

How the results depend on the processing

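Each PGCLC difference of the 4 enzymes stayed negative under each alternative tried. Leaving out 1 array gave -5.26 to -4.35 for Chdh, -4.69 to -3.90 for Ak4, -4.42 to -4.03 for Gpat3 and -3.89 to -3.43 for Plcd1. The mean of all probe sets gave Ak4 -2.02, and probe sets without a suffix gave Plcd1 -3.17 in PGCLCs, while Chdh has no such probe set. Control PGCLCs minus control ESCs was 3.87 for Plcd1 when its probe sets were averaged and 3.27 without suffixed ones, and for Ak4 it turned to -0.030 without control ESC replicate 1 (-0.030 to 0.74 over single arrays). In ESCs the sign of Gpat3 turned to 0.10 without Tfap2c-/- replicate 1 and to 0.37 without control replicate 2 (-0.40 to 0.37), and that of Plcd1 to -0.024 without suffixed probe sets. Any probe set deciding, 2 enzymes were above background in Tfap2c-/- PGCLCs, and 1 in control ESCs at the stricter cutoff.

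The number of list genes called in PGCLCs was 0 in each list and among the neighbours when the 4 PGCLC arrays were fitted alone, which leaves fewer samples. Leaving out 1 array gave 0 to 2 for choline and one-carbon metabolism, 0 to 2 for adenine nucleotides, 0 to 6 for glycerolipid synthesis, 0 to 4 for phosphoinositides and 0 to 2 for neighbours. With the mean of probe sets the counts were 1 for choline, 2 for glycerolipids and 1 for neighbours, without suffixed probe sets 1 for choline and 1 for neighbours, and with a filter on dim genes 1 for neighbours. Differences beyond 1.5, with no test, numbered 1 for choline, 0 for glycerolipids and 1 for neighbours. Over all genes, 87 to 609 passed with 1 array left out in PGCLCs, against 562, and 0 or 1 in ESCs. The study used 2 lines per genotype, but the labels do not say that a replicate number marks a line (deviations correlated at 0.392 between Tfap2c-/- and control PGCLCs and at -0.333 in ESCs). With a replicate block 556 genes passed in PGCLCs, 301 lower and 255 higher, and 0 in ESCs, Acsl4 did not pass and Lclat1 did, and the other list calls stood.

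With 2 arrays a group, a difference that misses the threshold is not shown to be absent, and values under the cutoff have no order.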
